A study of Oryctolagus cuniculus with 6 samples.

Results

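Empty bone defects in the rabbit skull were compared between day 5 and day 3 of healing. The comparison rests on 2 of the 6 arrays in the series, the array labelled Control day 5 and the array labelled Control day 3. The series measured newly formed tissue from male New Zealand White rabbits (Oryctolagus cuniculus), aged 4 months and weighing 3.0 to 3.5 kg, with 24 rabbits in all. Each rabbit had 4 circular defects of 5 mm in the parietal bone. The 2 on the right received 0.2 g of HPD, which the series title calls human particulated dentin, and the others were left without a graft and served as controls. Tissue was taken on day 3, day 5 or day 7, and 1 array was run for each treatment and day.

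The unit compared was the feature, a named gene or, where the array gave no single symbol, the array's own identifier. A feature entered when its spots carried no outlier mark and were well above background on both control arrays. This held for 19432 of 23310 features, of which 9151 were named genes. Levels are log2 of the background-subtracted intensity minus each array's 75th percentile, so a level of 0 equals that percentile. A difference is the day 5 level minus the day 3 level, and a difference of 1 is 2-fold. Genes were grouped into 30 lists by their known roles. There was 1 array a side, so no difference here has a replicate check, and no p-value was computed. The labels do not say whether an array holds tissue of 1 animal or a pool. The days were hybridised on different slides, so day and slide cannot be told apart. With 1 array a day, a difference between the animals sampled cannot be told apart from day. Fewer cells of a type and less RNA per cell cannot be told apart either.

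A bone defect first fills with clotted blood, into which neutrophils and then macrophages move. Fibroblast-like cells of the periosteum, marrow and dura then lay down collagen, and osteoblasts among them deposit a matrix that mineralises. Osteoclasts, large cells that form from the monocyte lineage, resorb bone with acid and with proteases such as cathepsin K. Developing neutrophils and eosinophils make the RNA for their granule proteins in the bone marrow, and mature cells carry mostly the proteins.

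The probes behind the largest differences are 60-base oligonucleotides. The first 30 bases of 8 of them are printed, in the orientation of the deposited files, since the lower levels of granule genes and the higher levels of bone and connective tissue genes on day 5 rest on them. They are all in lower case because no part of them is marked.
LCN2: tgccatgatgttcttcaggaagggttccag
CAMP: aacctactgggctgcgcaagcgcttacgaa
MCP-1: atgttttgactactgagccttccccatcct
EPX: atttccttgtctcgaatcatatgcgacaat
DMP1: gcagaaaactgacagttgacacttacaaca
IBSP: atatgacgatggttacgaaatctatgaaaa
OGN: gccacagtattaccctcacaatgcttacta
PTN: gcaaactgaccaagcccaaacctcaagcag

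On both arrays 88.5% of features lay within 2-fold of each other. At least 2-fold higher on day 5 were 934 features (4.81%), and at least 2-fold lower were 1297 (6.67%). These shares are the background for the counts of each gene list below. The median difference over all features was -0.03, and the middle of the distribution was narrow, with a 5th percentile of -1.20 and a 95th percentile of 0.98. The lower side reached further. At least 16-fold lower were 120 features and at least 16-fold higher were 8, and among named genes these counts were 14 and 3. The share 2-fold higher differed little with signal strength, at 4.72%, 4.99% and 4.71% in the dimmest, middle and brightest groups of features. The share 2-fold lower was 6.88%, 7.95% and 5.19% in that order, least among the brightest.

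The balance of higher and lower depends on how the arrays are scaled. The 10 control transcripts added to the labelling reaction were a median of 0.72 higher on the day 5 array on the scale used here, with a range of -0.07 to 0.86. With these transcripts as the reference, 231 features were at least 2-fold higher and 5910 at least 2-fold lower. The 11 gene lists named below whose median lies between 0 and 0.72 then fall below 0. Of the 4 lists with higher medians, none did. The background correction matters as well. Of 224 genes chosen for naming by the rule given under the processing, 113 were past 2-fold. With normexp, a model-based background correction, 83 of these kept the 2-fold difference and 30 did not, and with the mean over a gene's probes in place of its brightest 109 kept it and 4 did not.

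**Figure D1:**
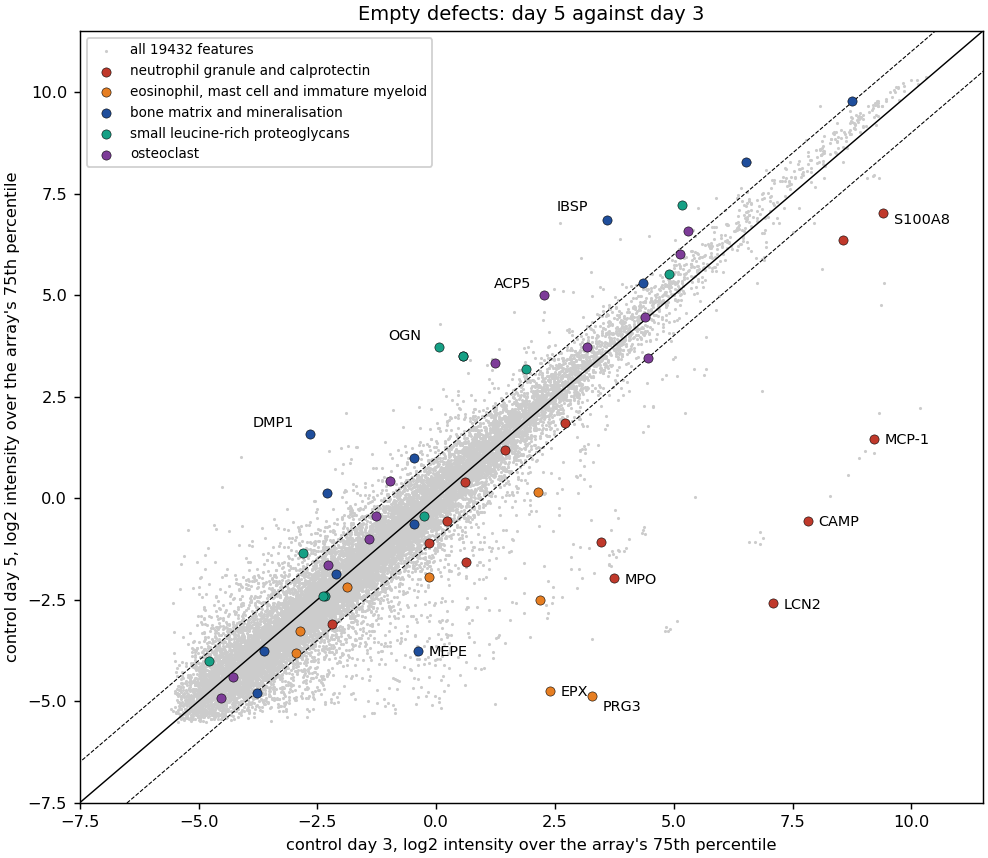
Level of each feature on control day 3 (horizontal axis) and control day 5 (vertical axis), both as log2 intensity over the array's 75th percentile, with members of 5 gene lists in colour. The solid line marks equal levels and the dashed lines 2-fold; LCN2, CAMP and MCP-1 lie far below the lines and DMP1, OGN and IBSP above them.

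Genes of neutrophil granules held the lowest differences. LCN2, which encodes lipocalin 2, an iron-scavenging protein of neutrophil granules, stood at 7.08 on day 3 and -2.59 on day 5. This is a difference of -9.68, or 818-fold, and the lowest of all 19432 features. CAMP, the antimicrobial peptide cathelicidin (probe at chr9:16031753-16031812 on oryCun2), went from 7.82 to -0.55, a difference of -8.37, and its 5 probes lay between -8.64 and -8.37. MPO, the peroxidase of neutrophil granules (chr19:29987709-29987768), went from 3.74 to -1.97, a difference of -5.71. BPI, which encodes a protein that kills Gram-negative bacteria, was at 3.46 and -1.08. All 4 were also low on the control array of day 7, at -2.78, 0.37, -1.24 and -0.66 in that order.

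The rabbit defensins were lower as well. The symbol MCP-1 stands here for a macrophage cationic peptide, a defensin of rabbit phagocytes, and not for the chemokine. It went from 9.22 to 1.46, a difference of -7.76, and its 5 probes ranged from -7.93 to -7.49. The probe's own description names the related peptide MCP-2, and near-identical defensin genes may share signal. Including it, 5 features are described on the array as defensins, corticostatin or cationic peptides, a group chosen after its values were seen. Their differences ran from -8.11 to -7.76, and their median level was 9.02 on day 3 and 1.17 on day 5.

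All 14 measured members of the neutrophil list were lower on day 5, 8 of them at least 2-fold, beside 6.67% of all features, with a median of -2.20 beside -0.03 over all features. The chemokine receptor genes CXCR1 and CXCR2, at -0.25 and -0.21, and NCF1 and NCF4, parts of the enzyme that makes oxygen radicals, at -0.79 and -0.88, were among those nearest to 0. MMP8, neutrophil collagenase, stood at -0.95 by its brighter probe and at -3.68 by the other, with a mean of -2.31. S100A8 and S100A9, the subunits of calprotectin, went from 9.40 to 7.02 and from 8.56 to 6.35, and FPR1, a receptor for bacterial peptides, from 0.62 to -1.57. FPR2 was well above background on day 3 only. The summed signal of the 14 genes, in units of each array's 75th percentile, was 2050 on day 3, 225 on day 5 and 32.7 on day 7. The part that a different share of blood or marrow cells on the 2 arrays has in the other differences was not tested.

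Eosinophil granule genes formed the next group. PRG3, a basic granule proteoglycan, went from 3.27 to -4.88, a difference of -8.15, and EPX, the eosinophil peroxidase (chr19:30034575-30034634, beside MPO), from 2.40 to -4.74, a difference of -7.14. With normexp EPX stood at -4.64. MS4A3, a membrane protein of myeloid precursors, was at 2.19 and -2.51. Its 4 probes gave differences from -7.43 to -4.70. MS4A2, the beta chain of the mast cell and basophil receptor for IgE, stood at -1.98. All 8 measured members of the list of eosinophil, mast cell and immature myeloid genes were lower, with a median of -1.89. Of these, 5 were at least 2-fold lower, beside 6.67% of all features. KIT, the stem cell factor receptor that mast cells carry, differed by -0.31 and GATA2 by -0.39.

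Several others of the 15 lowest encode proteins of blood cells or plasma. SERPINB10, a protease inhibitor of the marrow, went from 3.96 to -1.3, and CSTA, which encodes cystatin A, from 1.24 to -5.06. HP, haptoglobin, which binds free haemoglobin, went from 6.85 to 2.63, an 18.8-fold difference. C4BPA, a complement inhibitor, was at -0.02 and -3.99. IgL, an immunoglobulin light chain, was at 0.69 and -3.43. The remaining members of the 15 lowest were OTUD6A, at 1.32 and -2.76, and HSPA12B, at 1.59 and -2.55. The 2 probes of HSPA12B gave -4.14 and -0.42. With normexp CSTA, C4BPA and IgL stood at -3.52, -2.11 and -2.54.

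**Figure D2:**
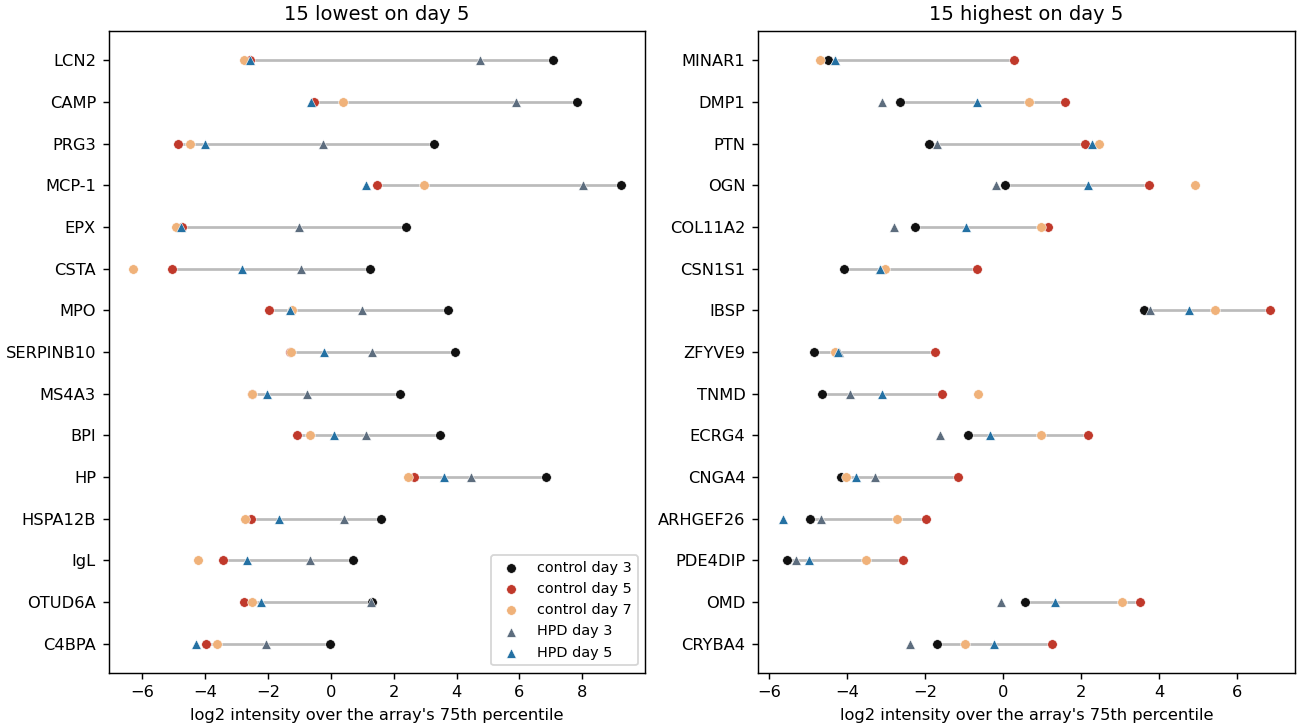
Levels of the 15 lowest (left) and 15 highest (right) named genes by the control difference, on 5 of the arrays, as log2 intensity over the array's 75th percentile; grey bars join control day 3 and control day 5. MINAR1, CSN1S1, ZFYVE9 and CNGA4 are high on the control day 5 array alone, whereas DMP1, PTN, OGN and IBSP are also above control day 3 on control day 7.

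Antibody genes were lower as well. The array carries 374 measured features that its descriptions call antibody or immunoglobulin chains, a group chosen after its values were seen. Of these, 184 were at least 2-fold lower, beside 6.67% of all features, and 6 at least 2-fold higher, with a median of -0.97. They make up 66 of the 120 features at least 16-fold lower. Cloned light chain variable regions (156 features) had a median of -2.64, and cloned heavy chain variable regions (189 features) one of -0.38. Such clones share sequence, so their features are not independent measurements.

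Of the lymphocyte genes, none of the 17 measured members was 2-fold higher, and the median was -0.87. At least 2-fold lower were 8, beside 6.67% of all features. CD79B, part of the B cell receptor, went from 0.59 to -1.53. PRF1, the pore-forming protein of killer cells, differed by -2.02, LCK, the kinase of the T cell receptor, by -1.84, and CD3E, a chain of that receptor, by -1.73. MS4A1, which encodes the B cell protein CD20, was at 1.63 on both days. With normexp 2 of the 17 were at least 2-fold lower. PRF1, LCK and CD3E were then at -0.75, -0.65 and -0.26, and the median of the list was -0.26, where that of all features was 0.21.

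Red cell genes were split. Of 15 measured members, 7 were at least 2-fold lower, beside 6.67% of all features, and none was 2-fold higher, with a median of -0.85. RHAG, a membrane protein of the erythroid lineage, went from 0.64 to -2.68, HEMGN, a nuclear protein of erythroid precursors, from 3.30 to 0.88, EPOR, the erythropoietin receptor, from 0.46 to -1.86, and TMOD1, which caps actin in the red cell skeleton, from 1.0 to -1.08. With normexp RHAG differed by -2.19. HBA and HBB2, the globin genes, differed by 0.07 and 0.30, and 7 probes of HBA ranged from -0.26 to 1.25. ALAS2, the first enzyme of haem synthesis in red cells, and EPB42, a skeletal protein, differed by 0.38 and 0.54. These 4 members were the only ones of the list above 0, and under normexp HBA and HBB2 lay at 0.13 and 0.16, below the 0.21 of all features. The summed signal of the list, mostly globin, was 2350 on day 3 and 2640 on day 5. Of the platelet genes, 4 were measured, with a median of -0.62. TBXA2R, the thromboxane receptor, was at -1.22 and ITGA2B, the platelet integrin, at -1.02. With normexp these were -0.34 and -0.78, and no platelet gene was 2-fold lower.

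Macrophage genes had a median of -0.85, with 11 of 12 below 0 and 3 at least 2-fold lower, beside 6.67% of all features. MARCO, a scavenger receptor, went from 1.3 to -1.23, CHIT1, a chitinase of activated macrophages, from 1.40 to -0.79 and C1QA, a complement subunit, from 1.71 to 0.25. CSF1R, the receptor that sustains macrophages, differed by -1.0. CD68, a lysosomal protein often used to stain macrophages, was at 1.5 and 1.54. The summed signal of the 12 genes was 41.2 on day 3 and 22 on day 5.

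Inflammatory cytokine genes were below 0 in 18 of 20 cases. Of these, 6 were at least 2-fold lower, beside 6.67% of all features, none was 2-fold higher, and the median was -0.66. CCL5, a chemokine for T cells, went from 1.18 to -1.23, and CXCL8, which draws neutrophils, from 3.41 to 1.31 and then to -0.68 on day 7. IL10, which restrains inflammation, differed by -1.41, but by -0.11 with normexp, and IL18 by -1.33. IL6 and TNF differed by -0.87 and -0.88, less than 2-fold. IL1B was at 4.08 on day 3, 3.91 on day 5 and 1.22 on day 7, so that its larger step lay after day 5. IL1A was at 0.53, although the mean of its probes lay below the median of all features.

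Genes of the bone matrix were among the highest on day 5. DMP1, an acidic matrix protein of osteocytes and mineralising osteoblasts (chr15:62507160-62507219), stood at -2.65 on day 3 and 1.58 on day 5, a difference of 4.23, or 18.8-fold. Its 5 probes lay between 4.05 and 4.38. IBSP, bone sialoprotein (chr15:62360093-62360152), went from 3.60 to 6.85, a difference of 3.25, and both of its probes gave 3.23 to 3.25. OMD, osteomodulin, which binds osteoblasts to mineral, was at 0.56 and 3.51. PHEX, an endopeptidase of osteoblasts and osteocytes, was at -2.29 and 0.14. SPP1, osteopontin, made by bone cells and macrophages alike (chr15:62156573-62156632), was at 6.53 and 8.28.

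MEPE, a phosphoglycoprotein of osteocytes, was lower on day 5. Its probe lies in the same stretch of chromosome 15 as those of SPP1, IBSP and DMP1 (chr15:62320844-62320903), and its level was -0.39 on day 3, -3.76 on day 5 and -3.13 on day 7. The difference was -3.37, and its 2 probes gave -5.81 and -3.37. With normexp the difference was -1.83. PHOSPHO1, a phosphatase of mineral formation, was dim, at -3.78 and -4.81, and its difference of -1.03 became 0.13 with normexp. Over the 13 measured genes of bone matrix and mineralisation, 7 were at least 2-fold higher, beside 4.81% of all features, and 2 at least 2-fold lower, with a median of 1.03. SOST, which encodes the osteocyte protein sclerostin, differed by -0.14.

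Among regulators of osteoblasts, PTH1R, the parathyroid hormone receptor, went from 0.33 to 2.42, DLX6, a homeobox gene, from -5.11 to -3.53 and BMP4 from -0.97 to 0.52. Of 13 measured regulators, 4 were at least 2-fold higher, these among them, beside 4.81% of all features, and none was 2-fold lower. With normexp the 4 became 2, and DLX6 differed by 0.81. RUNX2, the transcription factor that commits cells to the osteoblast lineage, was at -1.54 and -1.35, and SP7, which acts after it, at 1.20 and 0.85. The median was 0.45, and -0.27 with the added control transcripts as reference.

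Genes of collagens and of collagen-processing enzymes were higher in 24 of 27 cases. The 12 that were at least 2-fold higher compare with 4.81% of all features, none was 2-fold lower, and the median was 0.91. COL11A2, a chain of a fibril-nucleating collagen, went from -2.26 to 1.16, COL5A2 from 3.25 to 5.58, LOXL4, an enzyme that cross-links collagen, from -3.94 to -2.03 (1.06 higher with normexp) and COL16A1 from 0.02 to 1.86. COL3A1, the chief collagen of granulation tissue beside type I, went from 8.08 to 9.66 and to 10.48 on day 7, and its 5 probes gave 1.57 to 1.74. COL1A1 went from 4.36 to 5.29, a difference of 0.93, just under 2-fold. COL8A2, COL5A3 and COL15A1 were the 3 below 0, at -0.61, -0.47 and -0.40.

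**Figure D3:**
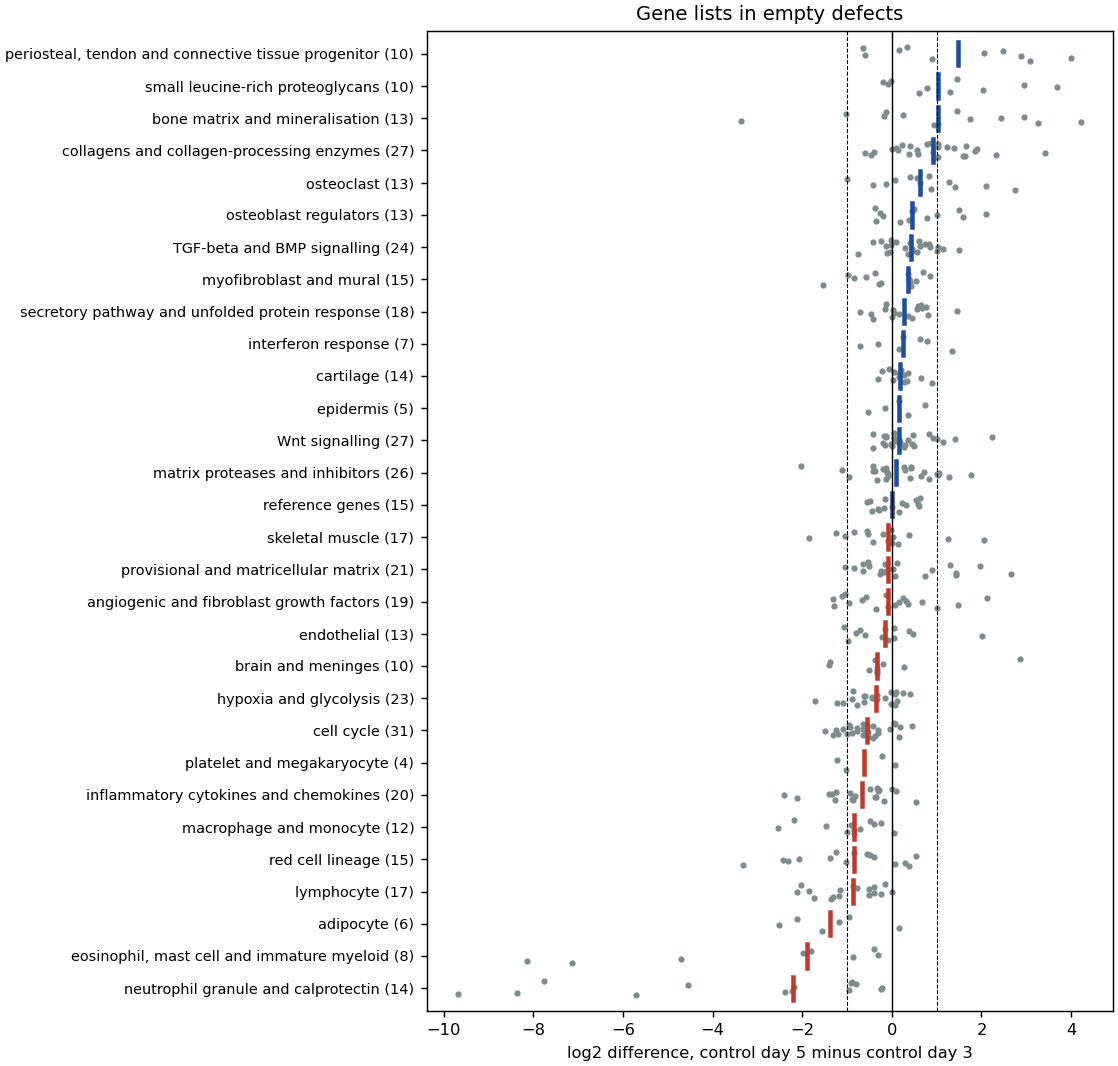
Difference between control day 5 and control day 3, in log2, of each measured member (grey points) of the 30 gene lists, with the list's median as a coloured bar (blue above 0, red below) and the number of measured members in brackets. Medians run from -2.20 for the neutrophil list to 1.48 for the progenitor list; the dashed lines mark 2-fold.

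Small leucine-rich proteoglycans, which bind collagen fibrils, were higher as well. OGN, osteoglycin (chr1:70251590-70251649), went from 0.05 to 3.73 and to 4.91 on day 7, with its 5 probes between 1.70 and 4.45. OMD lies beside it on chromosome 1 (chr1:70282499-70282558). LUM, lumican, was at 5.18 and 7.22, and PODN, podocan, at -2.81 and -1.35. Of 10 measured genes, 5 were at least 2-fold higher, beside 4.81% of all features. None was 2-fold lower, and the median was 1.03. KERA was at -0.20, although the mean of its probes lay above the median of all features.

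Genes of connective tissue progenitors had the highest median of the 30 lists, 1.48. The rank did not hold in every setting. Relative to the median of all features, these genes were at 0.94 with no filter on dim features and 0.87 among the brighter features. Bone matrix genes were then at 1.07 and 1.72. Of 10 progenitor genes measured, 5 were at least 2-fold higher, beside 4.81% of all features, and none was 2-fold lower. PTN, pleiotrophin, a growth factor bound to the matrix (chr7:1441932-1441991), went from -1.90 to 2.10, a 16-fold difference, and its 5 probes agreed to between 3.98 and 4.10. TNMD, tenomodulin, a membrane protein of tendon and periosteum (chrX:88777991-88778050), went from -4.66 to -1.56. ITM2A, a membrane protein of differentiating mesenchyme, was at 3.04 and 5.91, and LIX1 at -4.85 and -2.36. TNMD and LIX1 were dim, and with normexp their differences of 3.09 and 2.49 were 1.49 and 1.20. EGR1, an immediate early gene, and NT5E, which encodes CD73, were the 2 members below 0, at -0.65 and -0.59.

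Genes of the provisional matrix and of matricellular proteins, which signal from the matrix, were divided. POSTN, periostin, of the periosteum, went from 2.49 to 5.14 and to 7.10 on day 7, and CTHRC1, a collagen-associated protein, from 4.49 to 6.46. THBS2 and TNN each differed by 1.44. CTGF, a target of TGF-beta and of mechanical load, went from -0.36 to -1.40, and CCN1 of the same family differed by -0.85. With normexp CTGF differed by -0.66. Of 21 measured, 5 were at least 2-fold higher and 1 was 2-fold lower, beside 4.81% and 6.67% of all features. The median was -0.08, and 0.13 under normexp. TNC, tenascin C, was at -0.51 and 0.24.

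Osteoclast genes included 4 of 13 at least 2-fold higher, beside 4.81% of all features. ACP5, the tartrate-resistant acid phosphatase by which osteoclasts are stained, went from 2.27 to 5.01, a difference of 2.74. ATP6V0D2, a subunit of the proton pump, was at 1.24 and 3.34, DCSTAMP, which acts in the fusion of osteoclast precursors, at -0.97 and 0.43, and MMP9 at 5.29 and 6.57. TNFSF11, the osteoclast-inducing factor RANKL, differed by -0.12, and CA2, the carbonic anhydrase of osteoclasts and red cells, by -1.0. The median was 0.62, and -0.10 with the added control transcripts as reference.

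Among proteases and their inhibitors, MMP12, the macrophage elastase, was at 3.45 and 5.21 and MMP13, a collagenase of bone and cartilage, at 6.08 and 7.10. MMP17 differed by 1.06. ADAM19 went from -1.85 to -3.87 and TIMP4 from -1.58 to -2.69. In all, 5 of 26 were at least 2-fold higher and 2 at least 2-fold lower, beside 4.81% and 6.67% of all features. The median was 0.10. With normexp 2 were higher and none was lower: MMP13, MMP17, ADAM19 and TIMP4 were then at 0.87, 0.67, -0.55 and -0.45.

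Cartilage genes showed no difference of 2-fold among 14 measured by their brightest probes, and the median was 0.19. Over all features 4.81% were at least 2-fold higher and 6.67% at least 2-fold lower. With the mean of probes 1 gene of the list was 2-fold higher. COL2A1, the collagen of cartilage, was at 2.57 and 2.61 by its brightest probe. The differences of its 6 probes ranged from 0.00 to 1.93, with a mean of 1.16, past 2-fold. SOX9, the cartilage transcription factor, was dim on both days, at -4.77 and -3.88. COL10A1 of hypertrophic cartilage was well above background on neither array. Myofibroblast and mural genes had none 2-fold higher and 1 of 15 at least 2-fold lower, ACTG2 at -1.53, with a median of 0.35. The share lower was close to the 6.67% of all features. ACTA2, smooth muscle actin, was at -0.03 on day 3, 0.40 on day 5 and 2.37 on day 7.

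Genes of the cell cycle were lower in 26 of 31 cases, with a median of -0.55. At least 2-fold lower were 6, beside 6.67% of all features, and none was 2-fold higher. MCM5 and MCM7, of the replicative helicase, differed by -1.50 and -1.25, CCNE1, which encodes cyclin E1, by -1.32 and AURKB, a mitotic kinase, by -1.20. With normexp MCM5 and CCNE1 were at -0.79 and -0.21, and 2 genes of the list were 2-fold lower. MKI67 was at 3.51 and 3.09. CDK1 and KIF20A stood at 0.16 and 0.45, and CDK1 fell below the median of all features under normexp.

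The signalling lists are set beside shares over all features of 4.81% at least 2-fold higher and 6.67% at least 2-fold lower. TGF-beta and BMP genes had 3 of 24 at least 2-fold higher and none 2-fold lower, with a median of 0.43. Besides BMP4 these were BMP5, at 1.85 and 3.01, and ACVR1, a BMP receptor, which differed by 1.02, and by 0.87 with normexp. TGFB1 was the lowest, at -0.76. Wnt genes had 3 of 27 at least 2-fold higher, namely FRZB, a secreted Wnt antagonist, from -4.22 to -1.98, DKK1, another antagonist, from -0.66 to 0.75, and FZD6, a receptor, from -4.33 to -3.21. The 3 probes of FRZB gave 0.50 to 2.24, with a mean of 1.23, and with normexp FRZB differed by 1.28 and FZD6 by 0.79. None was 2-fold lower, and the median was 0.15. Both medians fall below 0 with the added control transcripts as reference.

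Vessel and growth factor genes were mixed. Over all features 4.81% were at least 2-fold higher and 6.67% at least 2-fold lower. TEK, the angiopoietin receptor of endothelium, went from -2.50 to -0.48, whereas ESM1, a secreted product of endothelial tip cells, went from 1.51 to 0.43. The 13 endothelial genes had a median of -0.15, with 1 at least 2-fold higher and 1 at least 2-fold lower. Among 19 angiogenic and fibroblast growth factors, PDGFD differed by 2.12, IGF1 by 1.48, PDGFB by -1.31 and ANGPTL4 by -1.29. Of these 19, 3 were at least 2-fold higher and 4 at least 2-fold lower, with a median of -0.09. With normexp PDGFB was at -0.42, and 2 were higher and 1 was lower by 2-fold. VEGFA was not named on the array. In the list of hypoxia and glycolysis, 3 of 23 were at least 2-fold lower and none was 2-fold higher, with a median of -0.36. HK2, hexokinase 2, differed by -1.71, SLC2A3, a glucose transporter, by -1.22 and ADM, adrenomedullin, by -1.08. With normexp these 3 were at -0.32, 0.05 and -0.03, and no gene of the list was 2-fold lower.

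Fat cell genes had the third lowest median, -1.38, over 6 measured genes. Of these, 4 were at least 2-fold lower, beside 6.67% of all features, and none was 2-fold higher. FABP4, a fatty acid carrier, went from 5.68 to 3.17, PPARG, the master regulator of fat cells, from -0.97 to -3.08, ADIPOQ, adiponectin, from -1.90 to -3.47 and LPL, lipoprotein lipase, from 2.13 to 0.94. With normexp PPARG was at -1.06 and ADIPOQ at -0.44. FABP4 and LPL are also made by macrophages and endothelium.

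Markers of neighbouring tissues were low or uneven. The shares over all features were 4.81% at least 2-fold higher and 6.67% at least 2-fold lower. Muscle genes had a median of -0.08, with TNNI2 at -1.86 and TNNC1 at 2.05, and 2 of 17 at least 2-fold higher against 3 at least 2-fold lower. With normexp 1 was higher and 1 lower, and TNNC1 was at 1.24. The 10 brain and meninges genes had a median of -0.34 and 3 members past 2-fold: UCHL1 at 2.87, SOX10 at -1.40 and SLC6A13 at -1.39. None of the 3 held throughout: 6 probes of UCHL1 ranged from -0.57 to 2.87 with a mean of 0.16, and with normexp SOX10 was at -0.15 and SLC6A13 at 0.05. Epidermal genes were measured in 5 of 10 named cases, with no 2-fold difference and a median of 0.17. KRT1 and KRT5 were well above background on neither array. Interferon genes had a median of 0.25, with IFIT3, at 1.34, the 1 of 7 past 2-fold. Genes of the secretory pathway had a median of 0.26, with CREB3L1, a transcription factor of collagen secretion, at 1.45, the 1 of 18 past 2-fold. The 5 probes of CREB3L1 ranged from 0.06 to 1.45, with a mean of 1.01. With the mean of probes 2 genes of the list were past 2-fold, and PDIA3 was at 1.14. None of 15 reference genes differed by 2-fold, with a median of 0.01, EIF4A2 at 0.63 and GAPDH at -0.44.

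Some of the 15 highest genes were high on 1 array alone. MINAR1 stood at 0.28 on control day 5 and between -4.69 and -4.31 on the other 5 arrays. Its 3 probes gave differences from 0.10 to 4.78. CSN1S1, a milk casein, and ZFYVE9 had the same pattern, with probes from -0.85 to 3.41 and from -0.20 to 3.11. The mean over probes was 1.79 for MINAR1, 0.54 for CSN1S1 and 1.17 for ZFYVE9. CNGA4, at -1.16 on control day 5, lay between -4.15 and -3.30 on the other arrays. In all, 17 features, 9 of them named, were at least 4-fold above every other array on control day 5. On control day 3 there were 55 such features, 17 of them named, among them LCN2, EPX, MPO, HP and MEPE. The rest of the 15 highest were ECRG4, a secreted peptide precursor, at -0.90 and 2.17, CRYBA4, a crystallin, at -1.69 and 1.25, PDE4DIP, at -5.54 and -2.57, and ARHGEF26, at -4.96 and -1.97. PDE4DIP, ARHGEF26 and CNGA4 differed by 1.19, 1.44 and 1.73 with normexp.

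Features seen on 1 of the 2 days only give a bound. There were 1361, of which 694 were well above background on day 5 only and 667 on day 3 only. For the dim array the feature's value was raised, where it lay below, to that array's weakest signal called above background. By this bound 213 were at least 2-fold higher and 231 at least 2-fold lower on day 5. MMP27, a matrix metalloproteinase, was at least 27.5-fold lower on day 5, OSTN, the muscle and bone peptide osteocrin, at least 14.8-fold, SLC35F4 at least 12.1-fold, TTR, transthyretin, at least 7.42-fold and NR4A3, an orphan nuclear receptor, at least 6.39-fold. CCER1 was at least 35.9-fold higher on day 5, RUNDC3A at least 21.9-fold, LRRC3B at least 16.7-fold, CATSPERE at least 16.6-fold and PRKAR1B at least 16.2-fold. CCER1, RUNDC3A and CATSPERE were well above background on the control day 5 array alone. Each bound rests on the brightest probe of its gene. CCER1, OSTN and TTR have 5 probes each, MMP27 and LRRC3B 3 each and CATSPERE 2, and bounds from their other probes are not given.

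Defects filled with HPD were measured on other arrays of the same slides, and by the study's design they may come from the same animals. Between HPD day 3 and HPD day 5, 675 features (3.49%) were at least 2-fold higher and 670 (3.47%) at least 2-fold lower. Of 18852 features that all 4 arrays measured, 149 were 2-fold higher in both treatments, which is 16.5% of the 901 in empty and 22.9% of the 651 in grafted defects. For lower features 365 were shared, 29.2% of the 1248 in empty and 57.9% of the 630 in grafted defects.

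Of the genes lowest in empty defects, LCN2, CAMP, MCP-1 and EPX were also far lower on day 5 in grafted ones, from a lower level on day 3. Others of the 15 lowest differed less: HP was at 4.45 on HPD day 3 and 3.59 on HPD day 5, and BPI at 1.12 and 0.09. LCN2 was at 4.73 on HPD day 3 and -2.57 on HPD day 5, CAMP at 5.90 and -0.62, MCP-1 at 8.03 and 1.11 and EPX at -1.02 and -4.76. On day 3 the levels of these 4 genes were higher in empty defects, by 1.19 for MCP-1 up to 3.43 for EPX. On day 5 they lay within 0.35 of each other. The 4 were picked for their low control differences, a choice that itself favours high levels on control day 3. EPX was dim on day 5, at -4.74 and -4.76. The weakest signals called above background were -5.53 on control day 5 and -4.98 on HPD day 5. PTN differed by 4.00 in both treatments, DMP1 by 2.42 in grafted against 4.23 in empty defects, OGN by 2.36 against 3.68 and IBSP by 0.99 against 3.25. S100A8 and S100A9 were 0.51 and 0.79 higher on HPD day 5 than on HPD day 3, where empty defects had -2.38 and -2.22. The median of the neutrophil list was -0.16 in grafted defects, that of the list of collagens and their enzymes 0.25 and that of bone matrix 0.34. None of these differences between the treatments was tested.

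**Figure D4:**
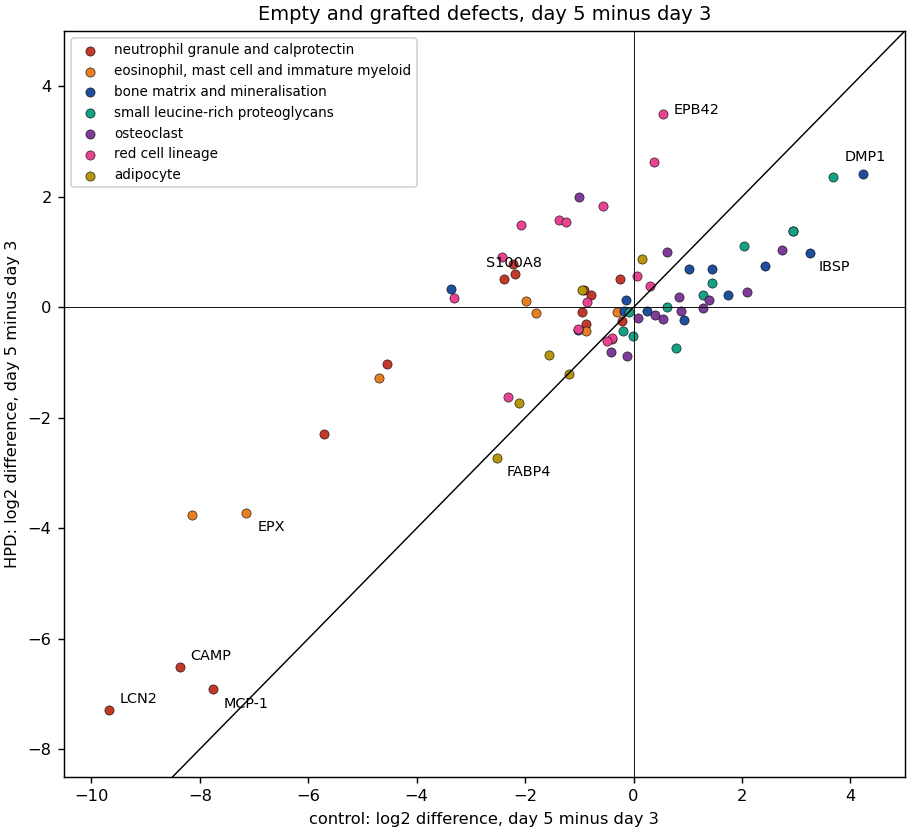
Day 5 minus day 3 difference, in log2, in empty (horizontal axis) and HPD-filled (vertical axis) defects for the members of 7 gene lists that were well above background on both control arrays. The diagonal marks equal differences; LCN2, CAMP and MCP-1 are low in both, DMP1 and IBSP are higher in empty than in grafted defects, and several red cell genes lie left of 0 and above 0.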

How the data were processed

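RNA of each sample was hybridised to a rabbit Agilent array in 1 colour; per the labels' protocols 0.2 µg was amplified with the dye Cy3. The authors deposited linear spot intensity values. These come, per the file headers, from Feature Extraction 10.5.1.1 with background subtraction, detrending and substitute values for dim spots, and probes are placed on oryCun2. Each array had 45220 spots, 43803 of them not controls, for 43603 probes. On the control arrays 84.2% (day 3) and 84.4% (day 5) passed as well above background, with 0 saturated spots. The number of arrays limits the precision.

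The deposited intensity was put on a log2 scale relative to the 75th percentile of non-control spots on its array. Outlier spots were dropped, repeated spots averaged, and the brightest probe of a gene used. A symbol was found for 22859 probes from the array's columns and from RefSeq (mOryCun1.1), whose coordinates were not used. No test was run. Some genes are not reported here. The steps were tested on simulated data, in which the day 5 signals were the day 3 signals with known folds and noise. Such data hold no difference between slides or animals, so they check the computation only. Named genes are the 15 highest and 15 lowest with the same sign under normexp, quantile normalization and the mean of probes, up to 4 rises and 4 falls of each list, the 5 largest bounds each way and a set of 19 bone, matrix and inflammation genes. Outside this rule, CXCR1, CXCR2, NCF1, NCF4, S100A8, S100A9, FPR1, FPR2, KIT, GATA2, MS4A1, COL10A1, KRT1 and KRT5 were named after their values were seen. Members and lists were chosen with earlier results of these data known. Tools were Python 3.11.15, pandas 2.3.3, numpy 2.4.6, matplotlib 3.10.9, R 4.3.3, limma 3.58.1 and the package data.table, version 1.17.8.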

Additional observations from a re-analysis of the deposited data

Results flagged for a closer look

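On the scale used here, the results below moved in opposite directions in empty and grafted defects, each by more than 0.15. This bar is the median SD between probes of a gene and does not measure variation between arrays, slides or animals. Over all features the SD of the control differences was 0.82. The added control transcripts were a median of 0.72 higher on control day 5 than on control day 3, and 0.37 higher for HPD. With them as reference, osteoblast regulators, hypoxia and glycolysis genes, RUNX2 and CXCL8 would lie below 0 in both treatments. The difference between treatments was not tested, since there was 1 array for each treatment and day. Values are the control difference minus the HPD difference.

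Red cell genes had a median of -0.85 in empty and 0.56 in grafted defects, which is -1.41 apart. Regulators of osteoblasts had 0.45 and -0.38, 0.83 apart, and genes of hypoxia and glycolysis had -0.36 and 0.26, -0.62 apart. COL1A1 differed by 0.93 and -0.23, which is 1.16 apart, and RUNX2 by 0.19 and -0.42, which is 0.61 apart. CXCL8 differed by -2.11 and 0.19, -2.29 apart, and IL1B by -0.17 and 1.33, -1.49 apart. CNGA4 differed by 2.99 and -0.47, 3.46 apart, and was high on the control day 5 array alone.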

How the results depend on the processing

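Counts moved by over 1.5 times under 5 settings. At least 2-fold higher and lower were 507 and 524 features with normexp, 1569 and 1970 with no filter on dim features, 454 and 574 in the upper part by level, 231 and 5910 with the added control transcripts as reference (chosen after seeing the data), and 144 and 422 at 4-fold. Quantile normalization, median scaling, the mean of probes and outlier spots kept left both counts within 1.5 times. The median of all features was 0.21 with normexp and -0.75 with the control transcripts, so list and gene values below are relative to the median of all features in each setting. Values are said to move when they shift by more than 0.15, the median SD between probes of a gene.

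With normexp these list medians moved: platelet -0.36, macrophage -1.03, cytokines -0.44, lymphocyte -0.47, osteoblast regulators 0.22, bone matrix 0.70, collagens 0.67, proteoglycans 0.72, myofibroblast 0.04, progenitor 0.77, osteoclast 0.44, cell cycle -0.72, TGF-beta and BMP 0.24, brain -0.07 and reference genes -0.23. The secretory pathway turned to -0.01. Among the brighter features, eosinophil and mast cell genes were at -4.72, cytokines -0.87, lymphocyte -0.53, osteoblast regulators 0.29, bone matrix 1.72, proteoglycans 1.64, cartilage 0.01, progenitor 0.87, osteoclast 0.83, endothelial -0.63, interferon 0.77, muscle -0.56 and adipocyte -1.09, and brain genes turned to 1.31. With no filter, platelet genes were at -0.98, cytokines -0.78, proteoglycans 0.82, progenitor 0.94 and proteases -0.04. With quantile normalization, bone matrix was at 0.83, myofibroblast 0.21, hypoxia -0.48 and reference genes -0.20. With the mean of probes, eosinophil genes were at -2.15 and proteoglycans at 0.80. Median scaling and kept outlier spots moved none of the 30 lists.

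Of 224 named genes, 174 moved with normexp, 36 with quantile normalization and 35 with the mean of probes, and none with median scaling. By any amount, 22 changed sign in at least 1 setting. Of those, 8 had started more than 0.15 from the median of all features: with normexp HBB2 turned to -0.05, LEP to -0.03, CDK1 to -0.25, CALCR to 0.14 and MFAP5 to 0.08, and with the mean of probes IL1A turned to -0.37, KERA to 0.31 and NEFL to 0.00. The cause was not tested. No paired analysis was possible because each group holds 1 array.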

Other observations

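Of the 18852 features measured on all 4 arrays of days 3 and 5, 30 were at least 2-fold lower in empty and 2-fold higher in grafted defects. The other way went 12. Among the same features 1248 were 2-fold lower and 901 higher in empty defects, and 630 lower and 651 higher in grafted ones. More features moved the same way, 365 lower in both and 149 higher in both. The correlation of the 2 differences across features was 0.5. The genes given here were chosen after their values were seen. Lower in empty and higher in grafted defects were the red cell genes TMOD1 (-2.08 and 1.5) and FECH (-1.24 and 1.55), with TSPAN33 (-1.35 and 2.17), and ALOX5AP, which acts in leukotriene synthesis (-1.41 and 1.47). Further ones were IRAG2, TRIB2, PIWIL4, LTB, TAS2R4, HOXC4, LPCAT2 and MARCHF3. Higher in empty and lower in grafted defects were ANPEP, aminopeptidase N (2.3 and -2.04), TEK (2.02 and -1.73), FSHR (1.42 and -1.58) and RTL4 (1.23 and -1.52).

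The feature with the highest difference of all, 5.13, has no single symbol. The array describes ENSOCUT00000010166 as a bubblegum-related acyl-CoA synthetase. It stood at -4.11 on control day 3 and 1.02 on control day 5, and at -4.37 and 0.65 on HPD day 3 and HPD day 5. A lysozyme C-like feature, ENSOCUT00000013890, differed by 4.21 in empty and 6.37 in grafted defects.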
